A study of Mus musculus with 9 samples.

Results

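Gfi1, Gfi1b, Klf1, Klf2, Klf3, Klf4, Klf6, Nfe2 and Myb are transcription factors that direct blood progenitors toward erythroid, megakaryocytic, granulocytic or monocytic fates. The 9 genes were taken by symbol from a mouse microarray table of 21072 transcript clusters, which are groups of probes read as 1 gene, covering 18797 gene symbols. All 9 genes were found, each with 1 cluster that carries no other gene's symbol, so 9 of 18797 genes are described. The arrays were made from marrow cells of 8-week female C57BL/6 mice given 5-fluorouracil at 150 mg/kg 6 days before harvest. Marrow cells with the surface profile Lin-Sca+Kit+ received retrovirus, and GFP-positive cells were sorted after 72 h of culture. In the R396Q group the virus carried GATA2 cDNA with the R396Q change and EGFP, in the GATA2 WT group it carried wild-type GATA2 cDNA and EGFP, and in the empty vector group (MIE) it carried EGFP without a cDNA. Each group had 3 arrays. All 3 groups share the 5-fluorouracil treatment, the infection and the culture, and the infected cells kept their own Gata2 gene, so GATA2 was added to cells that already had it. Neither the species of the cDNA nor the use of separate mice or cultures for the 3 samples is stated in the labels, so p-values measure only the spread between these samples, which may be technical.

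Gata2, the transduced gene, had log2 signals of 10.65, 10.72 and 10.53 on the R396Q arrays, 11.50, 11.24 and 10.94 on the GATA2 WT arrays and 9.87, 9.67 and 9.65 on the empty vector arrays. The 3 groups did not overlap. The probes cannot tell a vector transcript from the cells' own, so these values do not give the amount of added GATA2. The log2 difference was 1.49 ± 0.14 (SE) for GATA2 WT over empty vector (adjusted p = 0.0016), 0.90 for R396Q over empty vector (adjusted p = 0.0394) and -0.59 for R396Q against GATA2 WT (adjusted p = 0.0633, or 0.0222 with the replicate number as a block). The R396Q difference from empty vector missed the threshold without any 1 of 7 of the 9 arrays (all but GATA2 WT 1 and 3), with adjusted p of up to 0.155. Array medians lay between 6.06 and 6.19, and arrays of a group correlated at r of 0.989 to 0.995 over all clusters. The labels call the cells HSC, and the progenitor marker Kit averaged 10.5 in R396Q, 9.46 in GATA2 WT and 12.3 in empty vector. Slamf1, another progenitor marker, went the other way, at 10.36, 10.68 and 7.11 in the same groups. Against empty vector, 1 of 8 measured progenitor markers rose and 3 fell in GATA2 WT, and 1 rose and 1 fell in R396Q. Markers of differentiated cells were also present. Over 10 neutrophil markers the mean log2 signal ranged from 9.97 to 13.6 on R396Q arrays, from 6.94 to 9.96 on GATA2 WT arrays and from 11.5 to 14.7 on empty vector arrays. None of 5 lymphoid markers passed in any comparison.

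Gfi1 and Gfi1b are closely related zinc finger repressors that bind AATC sequences and recruit the histone demethylase Kdm1a (LSD1) with CoREST proteins. Gfi1 acts mainly in stem cells, neutrophil precursors and lymphocytes, and Gfi1b in erythroid cells and megakaryocytes. Klf1 is the erythroid Krüppel-like factor, which binds CACCC boxes of globin, blood group and membrane skeleton genes. Nfe2 encodes the p45 subunit that pairs with small Maf proteins at TGAGTCA sites and is needed for platelet production, and Myb keeps progenitors dividing. GATA factors are known regulators of Gfi1b and Klf1 in blood cells.

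The promoters of Klf1 and Gfi1b are shown because these genes had the largest differences among the 9. That of Klf2, a gene that passed no test, is shown because its window also holds a GATA word. The windows run from 250 bases before the gene's start to 50 after it in RefSeq's mouse annotation (build GRCm38.p6). Klf1 lies at chr8:84901732-84902031 on the plus strand, Gfi1b at chr2:28621933-28622232 on the minus strand and Klf2 at chr8:72318812-72319111 on the plus strand, each printed 5′ to 3′ along its gene. Capitals mark a GATA word. The first words searched, on both strands, were AGATAA and AGATAG. They were followed by the same search for 2 further words, TGATAA and TGATAG. Among the members, the first search matched Klf2 only, and the matches in Klf1 and Gfi1b came from the second.
Klf1: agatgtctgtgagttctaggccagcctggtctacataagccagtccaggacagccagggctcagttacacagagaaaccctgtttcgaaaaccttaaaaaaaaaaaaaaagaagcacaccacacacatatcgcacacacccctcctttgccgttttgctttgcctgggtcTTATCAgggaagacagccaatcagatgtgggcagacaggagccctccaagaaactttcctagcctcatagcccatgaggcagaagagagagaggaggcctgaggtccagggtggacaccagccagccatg
Gfi1b: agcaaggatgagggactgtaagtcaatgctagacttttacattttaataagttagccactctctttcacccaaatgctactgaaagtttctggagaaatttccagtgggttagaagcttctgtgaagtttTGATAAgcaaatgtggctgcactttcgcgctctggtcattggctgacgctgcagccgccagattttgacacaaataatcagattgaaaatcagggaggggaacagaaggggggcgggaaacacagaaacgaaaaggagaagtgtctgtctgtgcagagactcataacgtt
Klf2: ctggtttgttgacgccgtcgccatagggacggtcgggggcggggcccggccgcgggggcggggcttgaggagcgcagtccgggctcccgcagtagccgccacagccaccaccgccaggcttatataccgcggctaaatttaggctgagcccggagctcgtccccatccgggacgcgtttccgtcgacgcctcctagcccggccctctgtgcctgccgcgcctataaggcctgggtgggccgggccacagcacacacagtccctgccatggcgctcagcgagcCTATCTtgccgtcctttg
The word in Gfi1b is TGATAA on the gene's own strand, with its first base 120 bases before the start. In Klf1 it is TGATAA on the opposite strand, printed as TTATCA, 80 bases before the start. In Klf2 it is AGATAG on the opposite strand, printed as CTATCT, from base 33 after the start. The Klf2 word thus differs in sequence and in side of the start from those of Klf1 and Gfi1b. It is not a like-for-like contrast to them. Of 8 members with a promoter in the table, the other 5 (Gfi1 with 2 start sites, Klf3, Klf4, Klf6 and Myb) had no such word in the window. Of 32851 promoters of the same length, 29.8% held one, so a match is common and is given as a description only. The core AATC of Gfi proteins occurred 4 times in the Gfi1b promoter, and 10.1% of all promoters held at least 4. CACCC occurred 2 times in Klf1 and 5 times in Klf3, and 57.5% of promoters held it at least once. TGAGTCA was in none of these members' promoters and in 5.2% of all, while AACGG, a Myb core, was in that of Klf1 and in 17.4% of all.

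Transduction of wild-type GATA2 moved 4 of the 9 regulators past the test. Gfi1b and Klf1 rose, by 19.1-fold and 26.2-fold, and Klf4 and Gfi1 fell, by 3.16-fold and 1.72-fold, relative to empty vector. Of all clusters, 8.99% passed this comparison, 4.64% higher and 4.35% lower (limma over all 9 arrays, 2-sided, Benjamini-Hochberg adjusted p under 0.05 over all clusters). In 7 of the 9 the GATA2 WT and empty vector arrays did not overlap, against 22.6% of all clusters. With R396Q, 1 of the 9 passed against empty vector, namely Klf4, which fell 2.90-fold, and 1.23% of all clusters passed, 0.66% higher and 0.569% lower. Between R396Q and GATA2 WT, Klf1 and Gfi1b were lower in R396Q by 28.1-fold and 8.69-fold, the 2 of 9 that passed, against 5.75% of all clusters, 2.67% higher and 3.08% lower. The arrays of R396Q did not overlap those of empty vector in 4 of the 9 genes (14.1% of clusters), or those of GATA2 WT in 6 (20.6%). The median size of the log2 change over the 9 genes was 0.78, 0.31 and 0.57 in these 3 comparisons, against 0.12, 0.09 and 0.10 over all clusters. The 9 genes were chosen with earlier results of these data known. Counts and sizes set beside all clusters are therefore given as a description only. A moderated F-test over the 3 groups passed for Gfi1b, Klf1 and Klf4, and for 8.31% of clusters. R396Q and GATA2 WT were each set against the same 3 empty vector arrays.

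**Figure D1:**
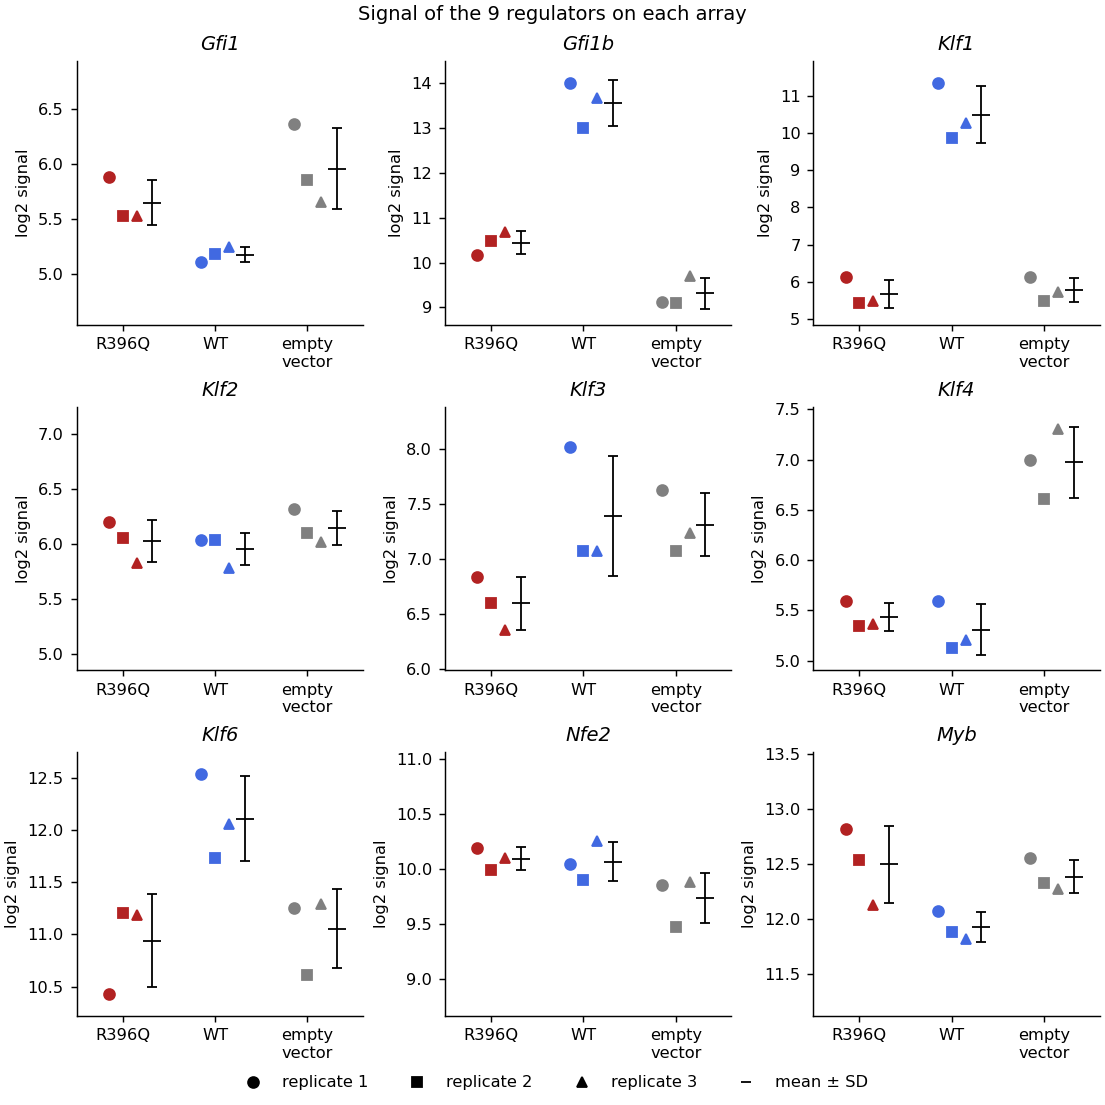
Log2 signal of the 9 regulators on each of the 9 arrays, with 1 panel per gene and the R396Q, GATA2 WT and empty vector arrays as points beside their group mean. Klf1 and Gfi1b stand apart on the 3 GATA2 WT arrays, at 9.86 to 11.34 and 13.02 to 14.01, while Klf4 is high only on the 3 empty vector arrays, at 6.61 to 7.31.

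Gfi1b was high on the GATA2 WT arrays and intermediate on the R396Q arrays. Its log2 signal was 10.17, 10.49 and 10.68 in R396Q, 14.01, 13.02 and 13.67 in GATA2 WT and 9.12, 9.10 and 9.71 in empty vector. The 3 groups did not overlap, and every R396Q array lay above every empty vector array and below every GATA2 WT array. GATA2 WT exceeded empty vector by 4.26 ± 0.29 log2 units (SE, 95% interval 3.57 to 4.94, adjusted p = 0.000466). R396Q was lower than GATA2 WT by a log2 difference of -3.12 (interval -3.81 to -2.43, adjusted p = 0.00214). Gfi1b thus differed between the mutant and the wild-type group in every array of the same number, by -3.84, -2.53 and -2.99. R396Q against empty vector gave 1.14 ± 0.29 (2.20-fold, interval 0.45 to 1.83), which did not pass after adjustment (adjusted p = 0.154, and between 0.0819 and 0.376 over the alternatives). The same-number differences were 1.05, 1.39 and 0.97. The 3 pairs were all above 0, without a call. Markers of mast cells and basophils and of megakaryocytes, cell types known to express Gfi1b, differed too between GATA2 WT and empty vector. Over 8 mast cell or basophil markers the mean log2 signal was 10.5 to 11.0 on R396Q arrays. It was 11.4 to 12.7 on GATA2 WT arrays and 9.11 to 10.5 on empty vector arrays. Against empty vector, 5 of these 8 rose in GATA2 WT and 0 in R396Q. Of 5 measured megakaryocyte markers, 5 rose in GATA2 WT and 0 in R396Q. Their part in the Gfi1b difference was not tested.

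Gfi1, the paralog, was lower with wild-type GATA2. Its log2 signal was 5.89, 5.53 and 5.53 in R396Q, 5.11, 5.18 and 5.25 in GATA2 WT and 6.37, 5.86 and 5.66 in empty vector. The GATA2 WT arrays lay below all 6 others, and the R396Q and empty vector arrays overlapped. GATA2 WT minus empty vector was -0.78 ± 0.19 (adjusted p = 0.0489), a call just inside the threshold that was lost without any 1 of 8 of the 9 arrays, with empty vector 3 the exception (adjusted p up to 0.138). R396Q minus GATA2 WT was 0.47 (adjusted p = 0.255) and R396Q minus empty vector -0.31 (interval -0.76 to 0.13, adjusted p = 0.579). In the comparison of GATA2 WT with empty vector, the differences of the paralogs had opposite signs. That of Gfi1 lost its call in 10 of the 18 alternative settings that keep the gene. Gfi1 signals stood at percentiles 38.1 to 51.6 of their arrays.

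Among 10 genes of the Kdm1a and CoREST complex that Gfi1 and Gfi1b recruit, 1 rose and 0 fell with GATA2 WT against empty vector. That gene, Gse1, a component reported with this complex, was 2.94-fold higher (1.55 ± 0.19, adjusted p = 0.00395). Kdm1a itself, the demethylase, was 0.36 ± 0.06 higher in R396Q than in GATA2 WT (1.28-fold, adjusted p = 0.0198), the only call of the list there, and it missed the threshold without R396Q 1 or 3 or GATA2 WT 1 or 2 (adjusted p up to 0.0786). No gene of the list passed between R396Q and empty vector. The shares of all clusters that passed were 8.99% (GATA2 WT against empty vector), 5.75% (R396Q against GATA2 WT) and 1.23% (R396Q against empty vector). These counts do not set the list apart. Without GATA2 WT 3, 1 gene of the list fell with GATA2 WT. With the replicate block the counts became 2 higher and 1 lower with GATA2 WT, and 1 higher and 1 lower in R396Q against GATA2 WT. The block called 17.4% and 13.1% of all clusters in these comparisons. The list medians were -0.05, 0.07 and 0.07 for GATA2 WT over empty vector, R396Q over empty vector and R396Q over GATA2 WT, beside -0.01, -0.01 and 0.00 over all clusters.

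Of 18 measured genes reported as targets of Gfi1 or Gfi1b, 5 rose and 3 fell with GATA2 WT against empty vector. The shares over all clusters were 4.64% higher and 4.35% lower. Tgfbr3, a co-receptor for TGF-beta, rose 9.85-fold (3.30 ± 0.31, adjusted p = 0.00165), Cdkn1a, the cell cycle inhibitor p21, 3.07-fold and Rgs18, a regulator of G protein signalling in platelets, 1.88-fold. The 3 that fell were Csf1r, the receptor of monocyte growth factor, by a log2 difference of -3.32, Irf8, a monocyte transcription factor, by 4.96-fold and Elane, neutrophil elastase, by 52.4-fold. These 3 are named after their values were seen. Without 1 array the count of rises stayed at 5, and that of falls lay between 0 and 2, at 2 without empty vector 2 or R396Q 3 only. In the same comparison, 6 of 8 monocyte or macrophage markers, Csf1r among them, and 5 of 10 neutrophil markers, Elane among them, fell. The part of cell makeup in the Csf1r, Irf8 and Elane values was not tested. In bulk samples, fewer cells of a type and less RNA per cell cannot be told apart.

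Tgfbr3 also rose in R396Q against empty vector, by 20.3-fold (4.35 ± 0.31, adjusted p = 0.00271). It was the only target of the list to pass there, while 0 fell (2 without empty vector 2), against 1.23% of all clusters. Between R396Q and GATA2 WT, where 2.67% of all clusters were higher and 3.08% lower, 0 targets were higher and 4 lower in R396Q. These were Id2, an inhibitor of helix-loop-helix factors, at 5.99-fold, Cdkn1a at 1.97-fold, Rgs18 at 1.52-fold and Meis1, a stem cell homeobox gene, at 2.39-fold. The count of lower targets ranged from 0 to 5 as each array was left out, moved by over 1.5 times without any array but GATA2 WT 2, and was 4 with the replicate block, which added 2 higher ones. Tgfbr3 was at 11.06 in R396Q and 10.01 in GATA2 WT on average, a difference of 1.05 (adjusted p = 0.127, or 0.0133 with the block). The list medians were 0.22, -0.11 and -0.15 in the order GATA2 WT over empty vector, R396Q over empty vector and R396Q over GATA2 WT.

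Klf1 was high with wild-type GATA2, and its R396Q and empty vector arrays overlapped. The Klf1 cluster had log2 signals of 6.12, 5.43 and 5.48 in R396Q, 11.34, 9.86 and 10.27 in GATA2 WT and 6.12, 5.49 and 5.73 in empty vector. The GATA2 WT arrays lay more than 3 log2 units above all others, and the first R396Q and the first empty vector array held the same value. The R396Q and empty vector values stood at percentiles 43.4 to 49.6 of their arrays, and their height over background was not tested. GATA2 WT exceeded empty vector by 4.71 ± 0.40 (interval 3.76 to 5.66, adjusted p = 0.00106), with same-number differences of 5.23, 4.36 and 4.54. R396Q was below GATA2 WT by a log2 difference of -4.81 ± 0.40 (interval -5.76 to -3.87, adjusted p = 0.00147). Against empty vector, the R396Q difference was -0.10 (interval -1.05 to 0.84, adjusted p = 0.971). The same-number differences were 0, -0.06 and -0.25, and the SE was 0.40 without and 0.185 with the replicate block.

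**Figure D2:**
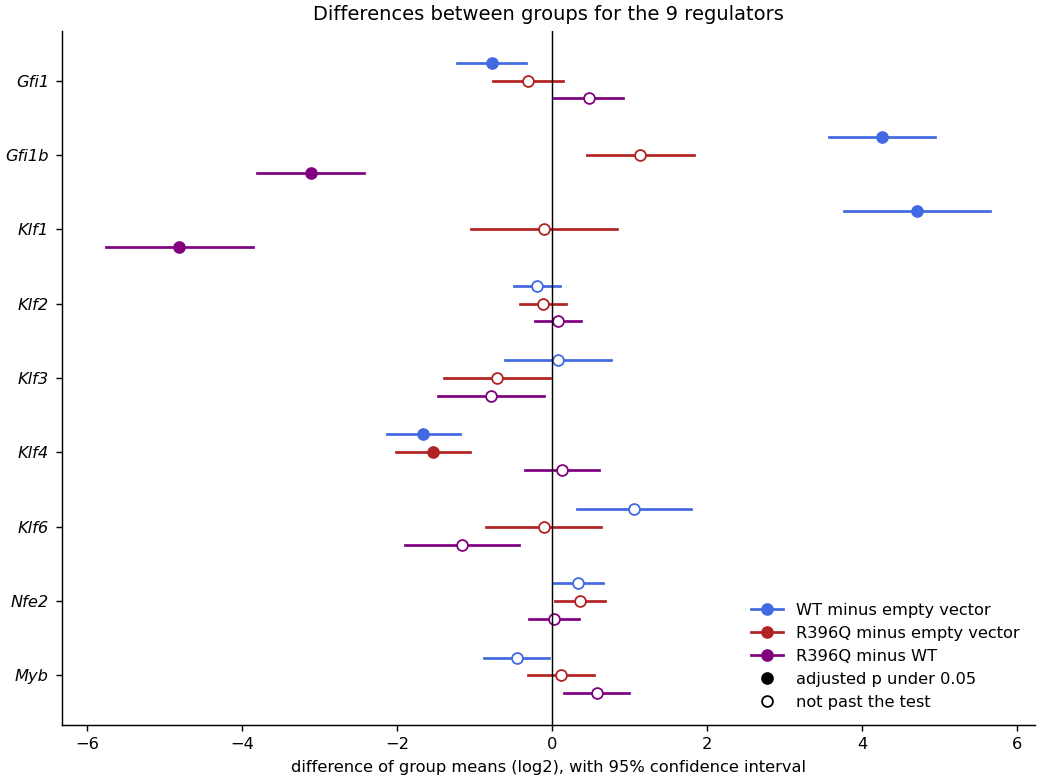
Log2 differences of the 9 regulators for GATA2 WT over empty vector, R396Q over empty vector and R396Q over GATA2 WT, with 95% intervals. Klf1 and Gfi1b lie at 4.71 and 4.26 in the first comparison and at -4.81 and -3.12 in the last. The intervals are not adjusted for the number of clusters. For R396Q against empty vector they include 0 for Klf1 and lie above 0 for Gfi1b, at 0.45 to 1.83, which did not pass after adjustment. Those of Nfe2, at 0.03 to 0.68, and Klf3, at -1.40 to -0.03, also exclude 0 without passing.

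Of 21 measured erythroid targets of Klf1, which include Klf3, 14 rose, 1 fell and 6 did not pass in GATA2 WT against empty vector. Over all clusters, 4.64% rose and 4.35% fell. Car1, erythroid carbonic anhydrase, rose 152-fold (7.25 ± 0.36, adjusted p = 0.00018). Icam4, the Landsteiner-Wiener blood group glycoprotein, rose by 3.91 log2 units (adjusted p = 0.000182), and Tmod1, which caps actin in the red cell skeleton, 4.14-fold. Smaller calls included Alas2, the first enzyme of heme synthesis, at 2.19-fold, which missed the threshold without any 1 of 8 arrays (all but GATA2 WT 2). Xpo7, a nuclear exporter active in erythroid maturation, was the 1 that fell, 2.31-fold. Xpo7 and Alas2 are named after their values were seen. The count of rises was between 8 and 14 when each array was left out, and moved by over 1.5 times without empty vector 1 or 3. The list median was 1.13, beside -0.01 over all clusters. Of 6 measured erythroid markers, whose mean log2 signal was 5.03 to 5.06 on R396Q arrays, 6.11 to 7.28 on GATA2 WT arrays and 4.99 to 5.06 on empty vector arrays, 3 rose in the same comparison. Alas2, Epor, Epb42 and Slc4a1, 4 of these markers, are also in the target list, and Alas2 and Epor are among the 3 that rose. Slc4a1, the band 3 anion exchanger, averaged 4.73 in R396Q, 5.09 in GATA2 WT and 4.74 in empty vector and did not pass (adjusted p = 0.392). How much of the list's values follows the share of erythroid cells was not tested.

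In R396Q, 0 of the 21 targets passed in either direction against empty vector (1.23% of all clusters passed), with a list median of -0.01. Car1 averaged 5.70 in R396Q, 12.86 in GATA2 WT and 5.61 in empty vector, and Icam4 7.38, 10.84 and 6.93 in the same groups. Against GATA2 WT, 12 targets were lower and 1 higher in R396Q (3.08% and 2.67% of all clusters), with a median of -1.09. Car1 was lower by 143-fold, Icam4 by 11.0-fold and Tmod1 by 4.75-fold. Xpo7 was the higher one, at 2.40-fold. The count of lower targets was 7 to 14 when each array was left out, moved by over 1.5 times without R396Q 1 or 2, and was 15 with the replicate block.

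**Figure D3:**
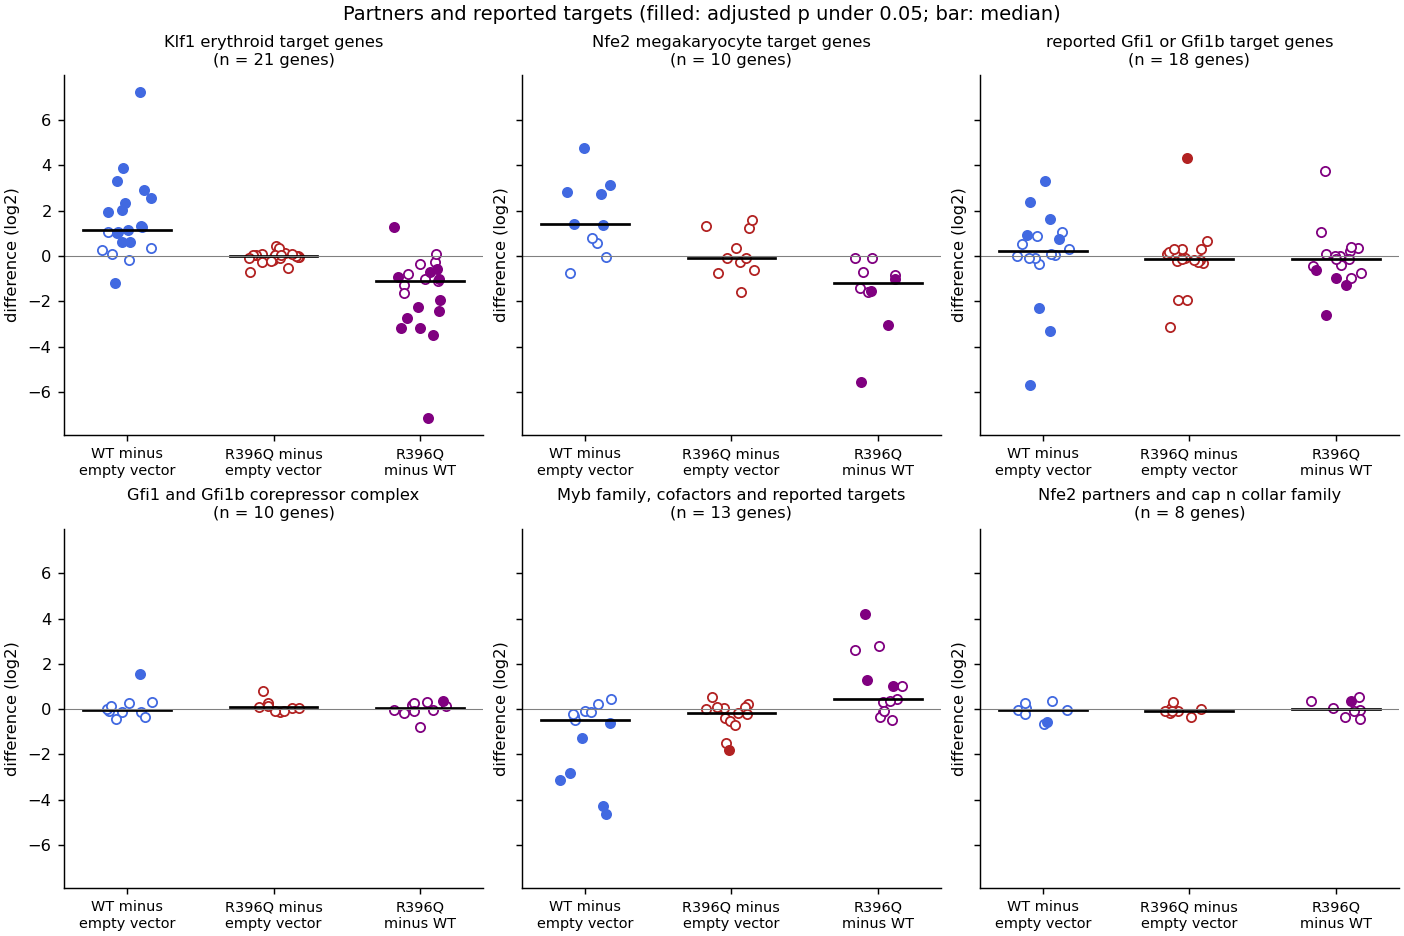
Log2 differences of the genes in the partner and target lists of the regulators in each comparison, with 1 point per gene and the list median as a bar. The targets of Klf1 have medians of 1.13 in GATA2 WT over empty vector, -0.01 in R396Q over empty vector and -1.09 in R396Q over GATA2 WT.

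Klf4, which promotes monocyte differentiation, was lower with both forms of GATA2. Its log2 signal was 5.60, 5.34 and 5.36 in R396Q, 5.60, 5.12 and 5.21 in GATA2 WT and 7.00, 6.61 and 7.31 in empty vector. The empty vector arrays lay above all 6 others, while the R396Q and GATA2 WT arrays overlapped. GATA2 WT minus empty vector was -1.66 ± 0.20 (interval -2.14 to -1.19, adjusted p = 0.00378). R396Q minus empty vector was -1.54 ± 0.20 (interval -2.01 to -1.06, adjusted p = 0.0189). R396Q minus GATA2 WT was 0.12 (interval -0.35 to 0.60, adjusted p = 0.848), which leaves differences of up to 0.60 possible. The R396Q call was lost without empty vector 1 or without any R396Q array, with adjusted p between 0.0658 and 0.0897. Monocyte or macrophage markers moved alongside. Over 8 such genes the mean log2 signal was 7.48 to 8.07 on R396Q arrays, 7.06 to 7.60 on GATA2 WT arrays and 9.23 to 10.5 on empty vector arrays, and 4 of 8 fell in R396Q and 6 of 8 in GATA2 WT, against empty vector. Their part in the Klf4 difference was not tested.

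Klf6, a widely expressed member of the family, was highest with GATA2 WT without passing the test. Klf6 signals on the log2 scale were 10.43, 11.21 and 11.18 in R396Q, 12.54, 11.73 and 12.06 in GATA2 WT and 11.25, 10.62 and 11.29 in empty vector. The GATA2 WT arrays lay above all others, and R396Q and empty vector overlapped. GATA2 WT minus empty vector was 1.06 ± 0.31 (interval 0.32 to 1.80, adjusted p = 0.0919) and R396Q minus GATA2 WT was -1.17 ± 0.31 (interval -1.91 to -0.43, adjusted p = 0.0896).

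Klf3, a repressor that Klf1 activates in erythroid cells, was lowest in R396Q. Klf3 signals on the log2 scale were 6.84, 6.60 and 6.35 in R396Q, 8.02, 7.07 and 7.07 in GATA2 WT and 7.63, 7.07 and 7.23 in empty vector. The R396Q arrays lay below all others, while GATA2 WT and empty vector overlapped. R396Q minus GATA2 WT was -0.79 ± 0.29 (adjusted p = 0.210, or 0.0324 with the replicate block), and R396Q minus empty vector was -0.71 ± 0.29 (adjusted p = 0.396). GATA2 WT minus empty vector was 0.08 (interval -0.61 to 0.76, adjusted p = 0.923), so Klf3 was not among the rising genes of the Klf1 target list. Klf2, which keeps lymphocytes and endothelium quiescent, had log2 signals of 6.20, 6.06 and 5.83 in R396Q, 6.04, 6.04 and 5.79 in GATA2 WT and 6.32, 6.10 and 6.02 in empty vector. All 3 groups overlapped, and its differences lay within 0.20 log2 units, with intervals that reach -0.49.

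**Figure D4:**
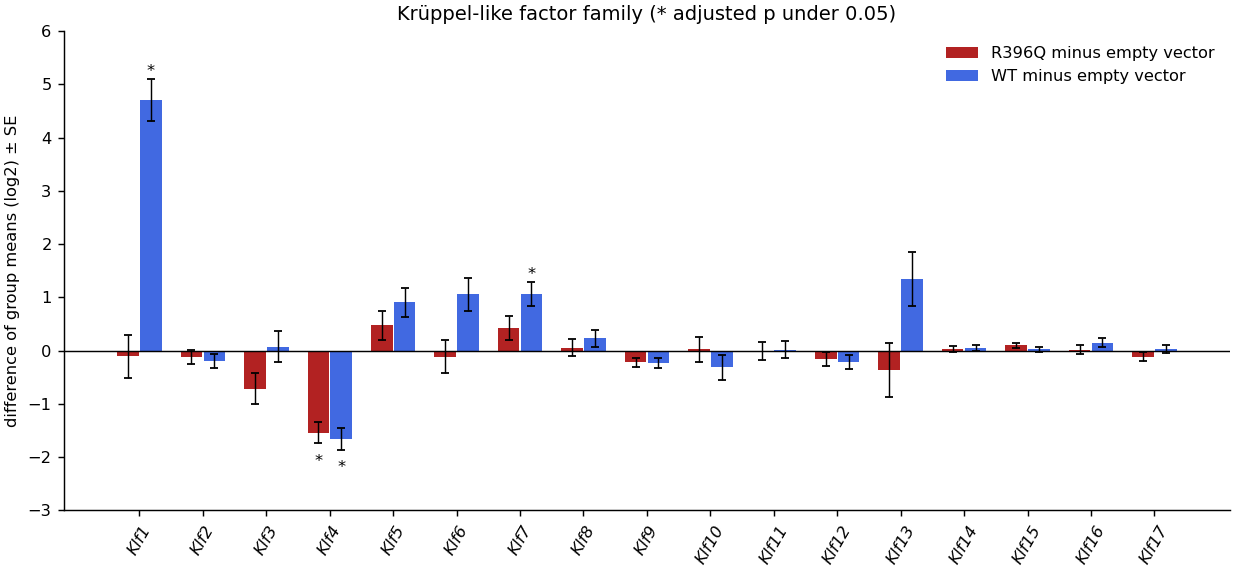
Log2 differences of the 17 measured Klf genes, as bars with SE, for R396Q over empty vector and GATA2 WT over empty vector, with a star where the adjusted p was under 0.05. Of the 17 genes, 1 passed in R396Q (Klf4, at -1.54) and 3 in GATA2 WT (Klf1 at 4.71, Klf7 at 1.07 and Klf4 at -1.66). The shares over all clusters were 1.23% and 8.99%.

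With GATA2 WT against empty vector, 1 of the 12 other Klf genes rose and 0 fell, near the 8.99% of all clusters that passed. The gene that rose was Klf7, a member known from neurons, at 2.10-fold (1.07 ± 0.23, adjusted p = 0.0305). Its call ended when any 1 of 7 arrays was omitted, the exceptions being GATA2 WT 3 and empty vector 1. Klf13 averaged 7.95 in R396Q, 9.67 in GATA2 WT and 8.32 in empty vector, a difference of 1.35 ± 0.51 between GATA2 WT and empty vector that did not pass (adjusted p = 0.177, or 0.022 with the block). None of the 12 passed in R396Q against either other group. With the block, Klf5, Klf7 and Klf13 rose with GATA2 WT, and Klf7 and Klf13 were lower in R396Q than in GATA2 WT. The block called 17.4% and 13.1% of all clusters in these comparisons.

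Some Klf genes answer quickly to handling of cells, so immediate early genes are given beside them. Of 14 measured, 2 rose and 1 fell with GATA2 WT, 0 passed in R396Q against empty vector, and 1 was higher and 1 lower in R396Q than in GATA2 WT. The shares of all clusters that passed were 8.99%, 1.23% and 5.75% in the same order. Egr3 rose 1.72-fold and Btg2 2.18-fold, calls that were lost without any 1 of 7 arrays (all but GATA2 WT 3 and R396Q 3) and of 8 arrays (all but GATA2 WT 2), so that the count of rises was 0 or 1 without any 1 array. Myc fell 2.45-fold with GATA2 WT, and was 2.45-fold higher in R396Q than in GATA2 WT. Btg2 was 2.17-fold lower in R396Q than in GATA2 WT, a call lost without any array but GATA2 WT 2. Fos, the classic immediate early gene, averaged 5.81 in R396Q, 6.72 in GATA2 WT and 6.58 in empty vector, with adjusted p of 0.919 for GATA2 WT against empty vector. Fos is named after its values were seen.

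Nfe2 passed no comparison without the replicate block. Nfe2 signals on the log2 scale were 10.20, 9.99 and 10.11 in R396Q, 10.05, 9.90 and 10.26 in GATA2 WT and 9.86, 9.48 and 9.89 in empty vector. The arrays of R396Q and of GATA2 WT lay above all empty vector arrays and overlapped each other. GATA2 WT minus empty vector was 0.33 ± 0.14 (1.26-fold, adjusted p = 0.215), and the replicate block put it at an adjusted p of 0.0440. R396Q minus empty vector was 0.36 ± 0.14 (adjusted p = 0.362) and R396Q minus GATA2 WT was 0.03 (interval -0.30 to 0.35, adjusted p = 0.986).

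Of 8 genes that pair with Nfe2 or belong to its family, 0 rose and 1 fell with GATA2 WT, 0 passed in R396Q against empty vector, and 1 was higher in R396Q than in GATA2 WT. The gene was Nfe2l1 each time, a related factor of the proteasome and stress response. It was 1.47-fold lower with GATA2 WT (-0.56 ± 0.06, adjusted p = 0.00331) and 1.30-fold higher in R396Q than in GATA2 WT, and the second call was lost without GATA2 WT 3 or R396Q 1. Over all clusters, 8.99% passed in GATA2 WT against empty vector, 1.23% in R396Q against empty vector and 5.75% between R396Q and GATA2 WT. When each array was left out, the list had 0 to 1 rises and 1 fall with GATA2 WT, the rise without GATA2 WT 2. In R396Q against GATA2 WT it had 0 to 2 higher and 0 to 1 lower, and these counts moved without GATA2 WT 2 or 3 or R396Q 1 or 3. The small Maf genes Mafk, Mafg and Maff differed by 0.36, 0.03 and -0.02 between GATA2 WT and empty vector and did not pass. With the block, the list had 1 rise and 1 fall with GATA2 WT, and 2 higher and 1 lower in R396Q against GATA2 WT. The block called 17.4% and 13.1% of all clusters in these comparisons.

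Of 10 measured megakaryocyte targets of Nfe2, 6 rose, 0 fell and 4 did not pass in GATA2 WT against empty vector, with a list median of 1.40. Over all clusters, 4.64% rose and 4.35% fell. Itga2b, the integrin CD41, rose 6.76-fold (2.76 ± 0.22, adjusted p = 0.000848), Tbxas1, thromboxane synthase, 2.59-fold and Itgb3, integrin beta 3, 8.82-fold. The other 3, Pf4, Ppbp and Rab27b, are named after their values were seen and rose by 2.81, 4.78 and 1.43 log2 units. Tubb1, the platelet tubulin, differed by 0.59 and did not pass (adjusted p = 0.187). As each array was left out the count of rises lay between 3 and 6, and it moved by over 1.5 times without GATA2 WT 1 or 3. All 5 measured megakaryocyte markers, of which Itga2b, Pf4 and Ppbp are also in the target list, rose in the same comparison. Their mean log2 signal was 8.08 to 9.27 on R396Q arrays, 11.8 to 12.1 on GATA2 WT arrays and 8.27 to 9.13 on empty vector arrays. The part of megakaryocyte number in the target values was not tested.

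R396Q against empty vector had 0 of the 10 targets past the test (1 without empty vector 3), and 2 higher with the replicate block, Rab27b and Itga2b. The shares over all clusters were 1.23% without and 3% with the block. Rab27b, a platelet granule GTPase, averaged 8.56 in R396Q, 8.66 in GATA2 WT and 7.23 in empty vector, and its R396Q difference from empty vector of 1.34 ± 0.29 did not pass (adjusted p = 0.095, or 0.0224 with the block). Itga2b averaged 10.38 in R396Q, 11.91 in GATA2 WT and 9.15 in empty vector. Against GATA2 WT, 0 targets were higher and 4 lower in R396Q, beside 2.67% and 3.08% of all clusters. Itga2b was lower by 2.88-fold, Tbxas1 by 2.00-fold, Pf4 by 8.35-fold and Ppbp by 46.6-fold. The count lay between 1 and 4 when each array was left out, and moved by over 1.5 times without any GATA2 WT array or without R396Q 2.

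Myb was lowest with GATA2 WT without passing the test. Myb signals on the log2 scale were 12.83, 12.54 and 12.13 in R396Q, 12.08, 11.88 and 11.82 in GATA2 WT and 12.56, 12.33 and 12.27 in empty vector. The GATA2 WT arrays lay below all 6 others, and R396Q and empty vector overlapped. R396Q minus GATA2 WT was 0.57 ± 0.18 (1.49-fold, interval 0.15 to 0.99, adjusted p = 0.139, or 0.0237 with the block). GATA2 WT minus empty vector was -0.46 ± 0.18 (adjusted p = 0.186, or 0.0347 with the block), with same-number differences of -0.48, -0.44 and -0.46. R396Q minus empty vector was 0.11 (interval -0.31 to 0.53, adjusted p = 0.870).

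Among 13 measured genes of Myb's family, cofactors and reported targets, 0 rose and 6 fell with GATA2 WT. Over all clusters, 4.64% rose and 4.35% fell. Kit, the stem cell factor receptor, fell 7.02-fold (-2.81 ± 0.08, adjusted p = 2.19e-05), Cd34, a progenitor surface protein, 24.8-fold and Myc 2.45-fold. The other 3, Mybl2, Mpo and Prtn3, are named after their values were seen and fell 1.52-fold, 8.81-fold and 19.3-fold. Mpo and Prtn3 encode neutrophil granule enzymes and stand among the neutrophil markers, while Kit and Cd34 stand among 8 measured progenitor markers, of which 3 fell and 1 rose. The part of cell makeup in these values was not tested. The falls numbered 3 to 6 when each array was left out, and moved by over 1.5 times without empty vector 1, while 1 gene rose without GATA2 WT 2. In R396Q against empty vector, Kit fell 3.50-fold (-1.81 ± 0.08, adjusted p = 0.00046) as the only call, and Cd34 differed by -0.41 without passing (adjusted p = 0.27). Against GATA2 WT, Cd34 was 18.6-fold, Myc 2.45-fold and Kit 2.00-fold higher in R396Q and 0 were lower, while the block gave 8 higher and 1 lower. The shares over all clusters were 1.23% for R396Q against empty vector and 5.75% against GATA2 WT, the latter 13.1% with the block. The list medians were -0.50, -0.15 and 0.45 in the order GATA2 WT over empty vector, R396Q over empty vector and R396Q over GATA2 WT.

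For the 4 members whose group means span at least 1 log2 unit, the 3 genes with the most similar profile over the 9 arrays were found by the root mean square (RMS) difference between mean-centred log2 values. Arrays and normalization are common to all the profiles. For Gfi1b these were Car2, a carbonic anhydrase (RMS 0.42), Hdc, which makes histamine in mast cells and basophils (0.42), and Icam4 (0.49). Hdc averaged 12.02 in R396Q, 14.76 in GATA2 WT and 10.61 in empty vector. For Klf1 they were Rhag, the Rh-associated glycoprotein of red cells (0.41), Atp1b2, a sodium pump subunit (0.47), and Tspan33, a tetraspanin of erythroid progenitors (0.47). Rhag averaged 5.09 in R396Q, 9.34 in GATA2 WT and 5.54 in empty vector. Klf4 was nearest to Kynu, an enzyme of tryptophan breakdown (0.17), F7, coagulation factor VII (0.19), and Myo1f, a myosin of leukocytes (0.20). Klf6 was nearest to Reep5 (0.20), Mfsd6 (0.22) and Nabp1 (0.23). Myo1f averaged 10.37 in R396Q, 10.06 in GATA2 WT and 11.61 in empty vector. The order of high and low groups is that of Klf4, which follows from the search for similar profiles.

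**Figure D5:**
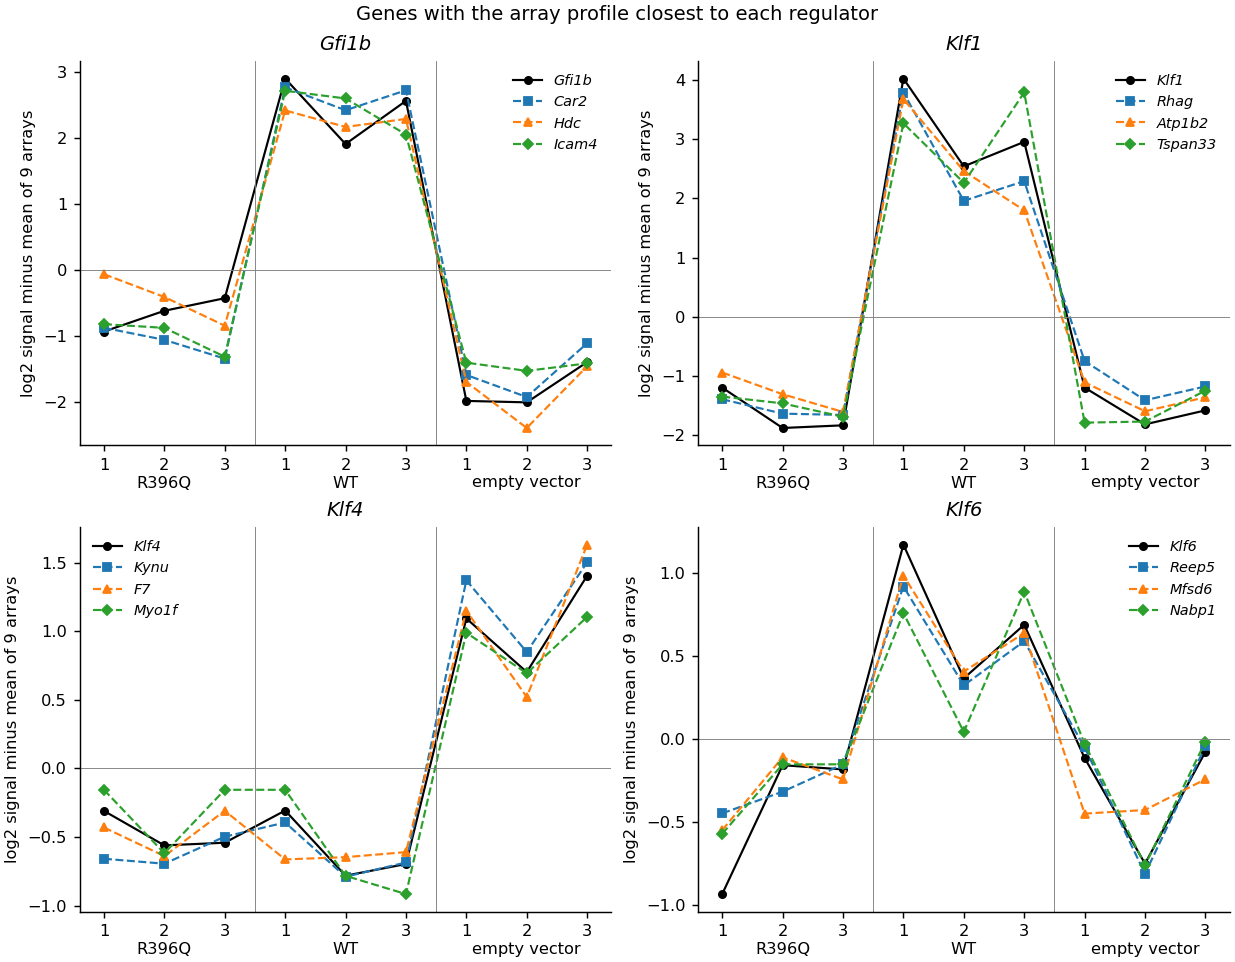
Mean-centred log2 profiles of Gfi1b, Klf1, Klf4 and Klf6 over the 9 arrays, each with its 3 nearest genes. The Gfi1b and Klf1 panels peak on the GATA2 WT arrays, and in the Klf4 panel all 4 genes are high on the empty vector arrays.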

How the data were processed

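RNA of 9 samples (3 R396Q, 3 GATA2 WT, 3 empty vector) was measured on Affymetrix arrays. The deposited table holds log2 signals. Per the submitters' processing notes, the authors used RMA (robust multiarray average) with software named Affymetrix Expression Console, of unstated version. Cluster identifiers are of a later whole-transcript type than the Mouse Exon 1.0 ST array of the labels. RMA summarises each cluster over its probes, so levels of different genes are not compared. All 9 value columns were used. Signal over background was not analysed here, and precision is limited by having 3 arrays per group.

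Symbols came from the platform annotation: 18992 clusters had 1 symbol, 1390 several and 690 none, and 418 symbols were updated through RefSeq gene identifiers. Many clusters hold tied values: 4412 had under 6 distinct values over 9 arrays, while the 9 genes had 7 to 9. No filter was used.

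limma 3.58.1 in R 4.3.3 fitted 1 mean per group to all 9 arrays (6 residual and 0.956 prior degrees of freedom), with 2-sided tests and Benjamini-Hochberg adjustment over all 21072 clusters at 0.05. Values are log2 differences with SE or 95% intervals, and the code was tested on simulated data. Replicate numbers were checked for pairing: the 9 same-number pairs across groups had deviations from their group means that correlated at r of 0.451 to 0.693, against -0.537 to -0.0900 for different numbers. Deviations from a group mean cancel within the group, so positive same-number values force negative values among different numbers. The negative range is therefore no separate evidence of pairing. The labels do not say what a number shares, so the number is a block in an alternative. Further alternatives were fits on only the groups compared, trend and robust options, array weights, median subtraction, quantile normalization, dropping dim or tied clusters, averaging over clusters with 1 symbol, and omitting each array in turn.

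The members and gene lists were chosen with earlier results of these data known. Named from each list were up to 3 called genes with the smallest p per comparison, or every called gene where 5 or fewer were called. Some genes were named outside this rule. Among them are Slc4a1, Klf13, Tubb1, Mafk, Mafg and Maff, which did not pass between GATA2 WT and empty vector in the main fit. Promoters came from RefSeq (GRCm38.p6).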

Additional observations from a re-analysis of the deposited data

How the results depend on the processing

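Over 19 alternatives, 504 member differences were recomputed: 479 kept their side of the threshold, 15 lost a call, 10 gained one and 0 called values changed sign. Uncalled differences took either sign over the alternatives for Klf1, Klf6 and Myb in R396Q against empty vector (-0.32 to 0.06, -0.33 to 0.14 and -0.05 to 0.30), Klf3 in GATA2 WT against empty vector (-0.24 to 0.24) and Klf2 and Nfe2 in R396Q against GATA2 WT (-0.01 to 0.18 and -0.06 to 0.12). The calls of Gfi1b and Klf1 in GATA2 WT against empty vector and in R396Q against GATA2 WT held under every alternative run, with differences of 4.03 to 4.53 and 4.28 to 5.03, and of -3.39 to -2.90 and -5.13 to -4.39. Klf4 in GATA2 WT against empty vector held in the 18 settings that keep it, at -1.84 to -1.49. With the replicate block, clusters called numbered 3667 or 17.4% (GATA2 WT against empty vector), 632 or 3% (R396Q against empty vector) and 2750 or 13.1% (R396Q against GATA2 WT), members called between R396Q and GATA2 WT 4, and members past the F-test 5. The block gave calls for Nfe2 and Myb in GATA2 WT against empty vector and for Klf3 and Myb in R396Q against GATA2 WT, and changed no other call of a member. With only the groups compared, the clusters numbered 1026, 94 and 772, and 0 members passed between R396Q and empty vector; Gfi1 (adjusted p = 0.121) and Klf4 in R396Q (0.0849) were lost with fewer samples. Without the dimmest 50% of clusters, which removes Klf4, Gfi1 and Klf2, 0 members passed between R396Q and empty vector. Array weights ended the Gfi1 call (0.0516). Klf6 passed in R396Q against GATA2 WT with quantile normalization (0.0479), without the dimmest 50% (0.0389) and without tied clusters (0.0495), and in GATA2 WT against empty vector without the dimmest 50% (0.0429); Myb passed in R396Q against GATA2 WT with median subtraction (0.0458) and without R396Q 3 (0.0416). The causes were not tested. Leaving out each array gave 1285 to 1724 clusters and 3 to 4 members in GATA2 WT against empty vector, 85 to 304 and 0 to 1 in R396Q against empty vector, 650 to 1153 and 2 to 3 in R396Q against GATA2 WT, and 3 to 3 members by the F-test. Of 71 calls of listed genes and Gata2, 37 held without any 1 array and 0 were lost with the block.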
